A study of Mus musculus with 10 samples.

Results

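Genes of the apoptosis pathway that limits the life of platelets were read from the counts of sorted mouse platelets: Bcl2l1, Mcl1, Bcl2, Bak1, Bax, Bid, Bcl2l11, Birc2 and Casp9. They were taken by symbol, and all 9 were among the 23420 genes listed. Peripheral blood platelets of adult mice had been sorted by flow cytometry into a Tomato+ fraction (5 libraries) and a Tomato- fraction (5 libraries), and their polyadenylated RNA was sequenced as bulk RNA-seq to compare the subsets. Tomato is a red fluorescent protein. The sources used here do not give the gene that drives it, the strain, the age beyond adult or the number of animals. Nothing in the labels says that replicates are different mice, so p-values measure only the spread between libraries, and that spread may be technical.

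Platelets have no nucleus, and their life span in the blood is set by the mitochondrial pathway of apoptosis. In that pathway the effectors Bak and Bax open the outer mitochondrial membrane unless a pro-survival relative holds them back, and in mouse platelets the pro-survival protein Bcl-xL, made from Bcl2l1, restrains Bak. BH3-only proteins such as Bid and Bim tip the balance towards death, released cytochrome c then activates caspase-9, and inhibitor of apoptosis proteins such as the product of Birc2 act on caspases and on ubiquitin signalling. A transcript level does not give the level of the protein that a platelet inherited from its megakaryocyte.

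The pro-survival members and the effectors share the BH1 domain, which the BH3-only proteins lack. Their coding sequences around the core of that domain are shown so that the relatives with counts (Bcl2l1, Bak1 and Bax) can be set beside those without (Mcl1 and Bcl2). The sequences are from GENCODE M21 transcripts (GRCm38), 5′ to 3′ on the coding strand, with the 12 bases of the BH1 core in capitals.
Bcl2l1: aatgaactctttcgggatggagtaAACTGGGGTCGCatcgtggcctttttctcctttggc
Bcl2: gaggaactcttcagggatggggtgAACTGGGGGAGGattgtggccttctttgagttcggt
Mcl1: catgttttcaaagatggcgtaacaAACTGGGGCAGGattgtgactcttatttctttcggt
Bak1: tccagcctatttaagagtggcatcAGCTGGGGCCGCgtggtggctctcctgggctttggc
Bax: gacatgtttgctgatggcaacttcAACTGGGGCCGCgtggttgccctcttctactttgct

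These stretches lie at chr2:152829550-152829609 (minus strand, Bcl2l1), chr1:106712428-106712487 (minus strand, Bcl2), chr3:95659826-95659885 (plus strand, Mcl1) and chr7:45465207-45465266 (minus strand, Bax). That of Bak1 crosses an intron within chr17:27021293-27022443 (minus strand). Bcl2l1 and Bcl2 were the closest pair, with 43 of 60 bases identical, and Mcl1 and Bak1 the most distant, with 27 of 60. Bcl2l1 shared 35 of 60 bases with Bak1, the effector it restrains in mouse platelets.

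Total counts ranged from 6.51 to 16.2 M (M, 1000000 counts) in Tomato+ and from 5.41 to 10.6 M in Tomato- libraries. Detected genes (1 count or more) ranged from 1118 to 2450 in Tomato+ and from 807 to 2430 in Tomato-. The 3 libraries with under 1000 detected genes were all Tomato- (replicates 1, 2 and 5). All 14 platelet markers set for the check had counts in every library, with a sum of 65487 ± 7004 CPM (counts per 1000000 counts of the library) in Tomato+ libraries against 69375 ± 4735 CPM in Tomato- libraries (mean ± SD, n = 5 each). Dropout was common. Of 789 genes with a mean of 100 CPM or more over the 10 libraries, 548 (69.5%) had 0 counts in at least 1 library.

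Of the 9 genes, 5 had a count in at least 1 library, against 20.0% of all listed genes: Bcl2l1, Bak1, Bax, Bid and Birc2. Mcl1, Bcl2, Bcl2l11 and Casp9 had 0 counts in all 10 libraries. Without the 3 libraries under 1000 detected genes the numbers were also 5 genes with counts and 4 without. Each library held between 2 and 5 of the 9 genes in Tomato+ and between 2 and 4 in Tomato-, with a median of 3 over the 10 libraries.

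**Figure D1:**
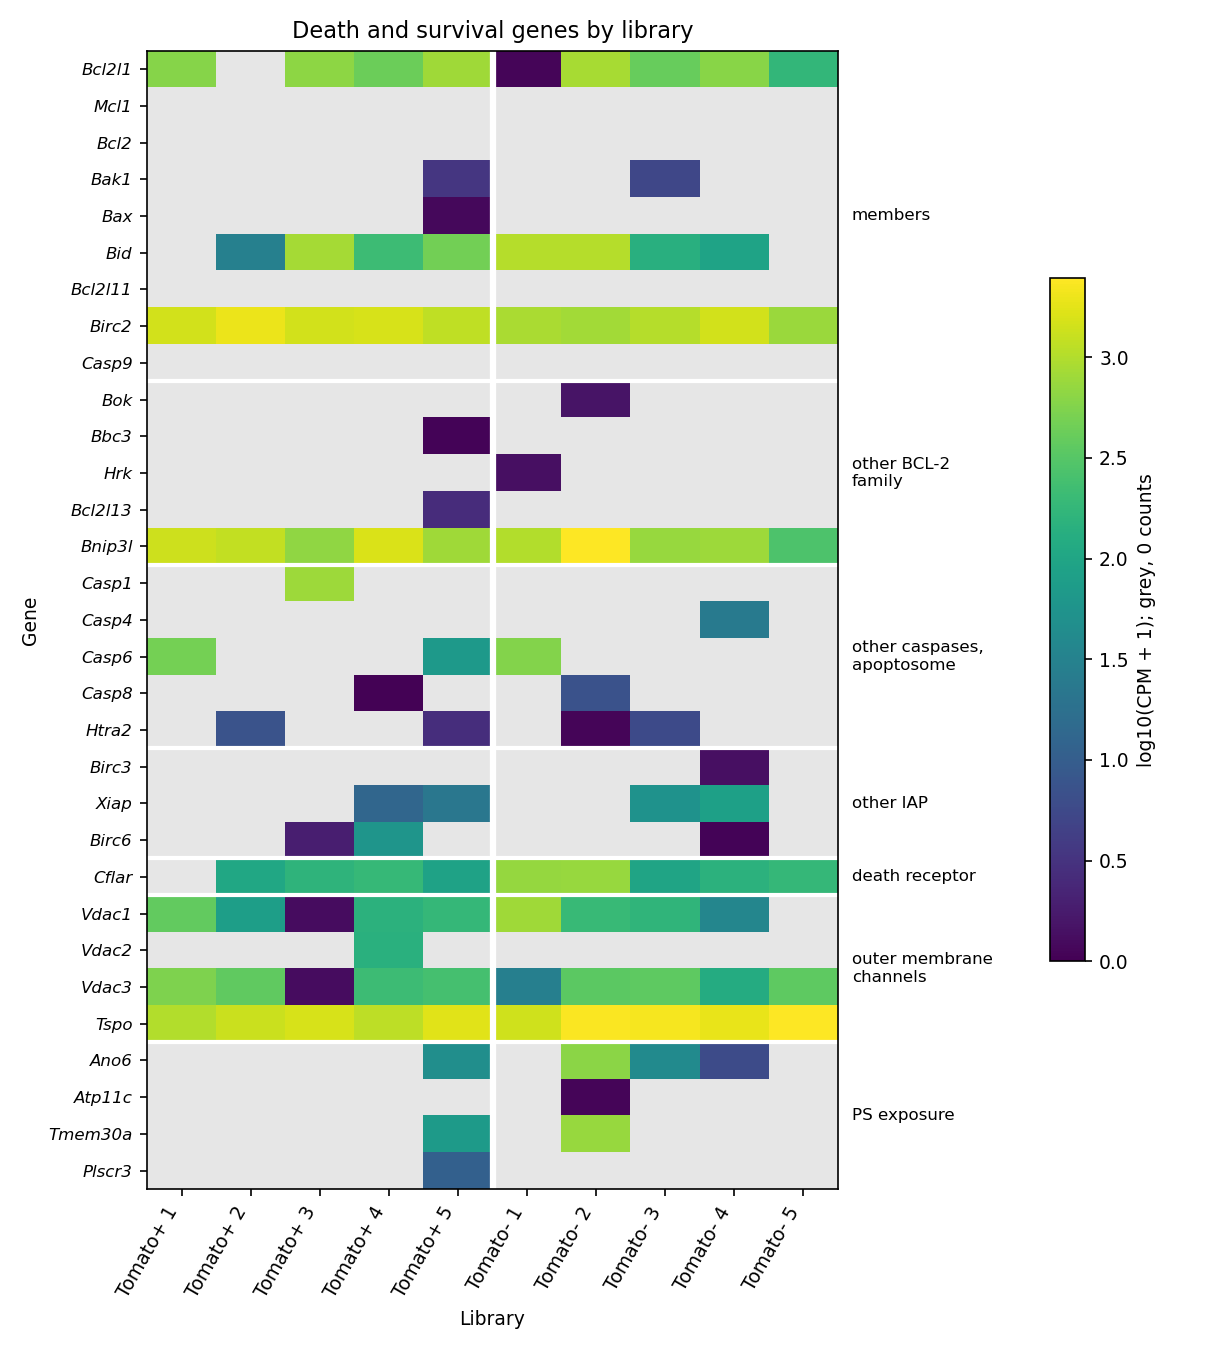
Level of the 9 genes and of related death and survival genes with any count (rows, grouped by list) in each library (columns, Tomato+ left of Tomato-), as log10(CPM + 1), with 0 counts in grey. Birc2, Bnip3l and Tspo had high levels in all 10 libraries, whereas Mcl1, Bcl2, Bcl2l11 and Casp9 had 0 counts throughout.

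Tomato+ and Tomato- platelets did not differ past the threshold in those of the 9 genes that could be tested. Of the 9 genes, 3 (Bcl2l1, Bid and Birc2) were abundant enough for edgeR's quasi-likelihood test, and 0 of these 3 passed at an adjusted p under 0.05. The background was 0 of 1016 tested genes (0%) higher and 0 (0%) lower in Tomato+, with 9 genes (0.886%) at an unadjusted p under 0.05. DESeq2 gave an adjusted p to 4 of the 9 (Bax beside these 3) and limma voom tested the same 3 as edgeR, and neither called any of them, against 9.64% of all genes given an adjusted p by DESeq2 and 0.0984% of those tested by limma voom. In bulk samples such as these, a change in the number of cells of a type and a change in RNA per cell cannot be told apart.

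Bcl2l1 (chr2:152780668-152831728, minus strand), the pro-survival gene of platelets, had 603, 0, 645, 429 and 813 CPM in Tomato+ replicates 1 to 5, against 0.123, 886, 400, 615 and 176 CPM in Tomato- replicates 1 to 5. The groups overlapped fully, and each held 1 library at or near 0. In Tomato+ replicate 2 the count was 0, which allows up to 0.219 CPM for counting error alone, and in Tomato- replicate 1 it was 1. The mean was 498 ± 310 CPM in Tomato+ libraries and 415 ± 350 CPM in Tomato- libraries (SD, n = 5 each). The log2 fold change was 0.50 (SE 1.79, 95% interval -3.30 to 4.30, edgeR adjusted p = 0.9996), an interval that holds large differences in both directions. The estimate was 0.03 without the 3 libraries under 1000 detected genes and -0.23 with limma voom.

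Mcl1 (chr3:95658788-95663176, plus strand), a pro-survival gene of megakaryocytes and many other cells, and Bcl2 (chr1:106538178-106714274, minus strand), the founding pro-survival member, had no count in either fraction. A count of 0 allows up to 0.185 to 0.461 CPM by library in Tomato+ and up to 0.283 to 0.554 CPM in Tomato-, for counting error only. Bcl2l1 itself was at or near 0 in 2 libraries and at 176 CPM or more in the other 8, so the true level of a gene at 0 can lie above these limits. Of the 3 pro-survival members, only Bcl2l1 had counts.

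The effectors were nearly undetected. Bak1 (chr17:27019810-27029009, minus strand), the main effector of platelet death in mice, had 28 counts (2.44 CPM) in Tomato+ replicate 5 and 46 counts (4.35 CPM) in Tomato- replicate 3, and 0 counts in the other 8 libraries. Bax (chr7:45461697-45466898, minus strand), its partner effector, had 2 counts (0.174 CPM) in Tomato+ replicate 5 and none elsewhere. Those libraries ranked 1 and 3 of 10 in detected genes. Neither gene entered the edgeR test of all 10 libraries after its filter. In an exact permutation test (two-sided, on log2(CPM + 1), run over all 4692 genes with any count), the difference was -0.13 for Bak1 and 0.05 for Bax (exact permutation p = 1, adjusted p = 1 for both). With counts in 1 library (Bax) or in 1 library of each group (Bak1), this p is fixed in advance. It therefore cannot show whether the fractions differ. Exons of Bak1 overlap those of Ggnbp1 on the other strand, and exons of Bax overlap the gene model Gm45808 on the same strand.

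Because Bcl-xL restrains Bak, the ratio of the 2 transcripts within a library was compared, as log2 of (Bcl2l1 counts + 1) over (Bak1 counts + 1). It was 12.78, 0, 12.04, 12.76 and 8.33 in Tomato+ replicates 1 to 5, against 1, 12.79, 6.49, 12.67 and 9.90 in Tomato- replicates 1 to 5. The ranges overlapped, and with Bak1 at 0 in 8 libraries the values mostly follow the counts of Bcl2l1. The mean was 9.18 ± 5.45 in Tomato+ libraries and 8.57 ± 4.95 in Tomato- libraries, which differ by 0.61 (exact two-sided permutation p = 0.817, n = 5 each, with a smallest possible p of 0.00794). The difference was -0.40 without the 3 libraries under 1000 detected genes and -1.28 without Tomato- replicate 1, so its direction was not stable.

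Of the BH3-only genes, Bid (chr6:120891930-120916853, minus strand), which caspase-8 cleaves to link death receptors to mitochondria, was abundant but uneven. It had 0, 28.8, 872, 208 and 467 CPM in Tomato+ replicates 1 to 5, against 1022, 1044, 138, 91.8 and 0 CPM in Tomato- replicates 1 to 5. The 2 highest libraries were both Tomato- (replicates 1 and 2) and were among the 3 with under 1000 detected genes, while the third of these, Tomato- replicate 5, had 0 counts. The mean was 315 ± 362 CPM in Tomato+ libraries and 459 ± 526 CPM in Tomato- libraries, with a log2 fold change of -0.12 (SE 2.04, 95% interval -4.44 to 4.21, edgeR adjusted p = 0.9996, n = 5 each). Without the 3 libraries the estimate was 1.69, and it also turned positive when any 1 of Tomato+ replicates 1, 2 or 4 or Tomato- replicates 1 or 2 was left out (0.02 to 0.42). Exons of Bid overlap those of Bcl2l13 on the other strand, and the sources used here do not give the strand setting of the counting. Bcl2l13 had 19 counts in Tomato+ replicate 5 and none elsewhere. Bcl2l11 (chr2:128126038-128162547, plus strand), which encodes the BH3-only protein Bim, had no count, and neither had Casp9 (chr4:141793612-141815976, plus strand), the initiator caspase of the mitochondrial pathway.

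**Figure D2:**
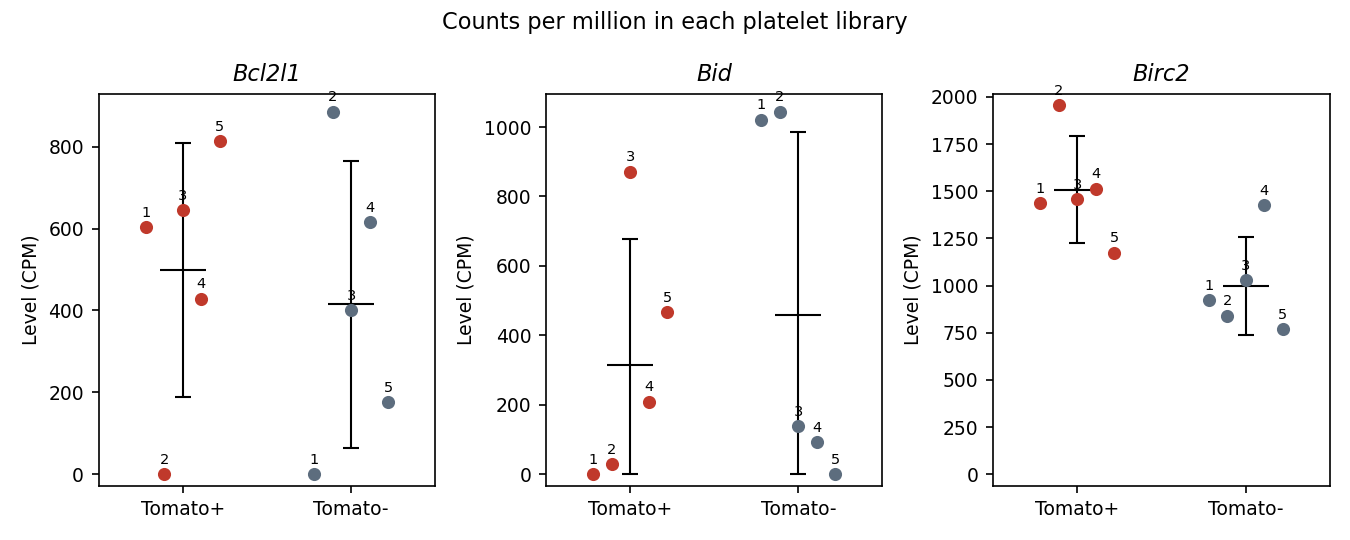
Level (CPM) of Bcl2l1, Bid and Birc2 in each Tomato+ (red) and Tomato- (grey) library, numbered by replicate, with the group mean (long bar) and SD (whiskers, stopped at 0 where the SD exceeds the mean). Bcl2l1 and Bid had libraries at or near 0 in both groups, whereas Birc2 lay between 770 and 1957 CPM in all 10.

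Birc2 (chr9:7818227-7837064, minus strand), which encodes the ubiquitin ligase cIAP1, was the only one of the 9 genes with counts in every library, as 1.13% of all listed genes had. Of the 789 genes with a mean of 100 CPM or more, 241 (30.5%) had counts in every library. Birc2 had 1438, 1957, 1457, 1514 and 1173 CPM in Tomato+ replicates 1 to 5, against 923, 840, 1030, 1427 and 770 CPM in Tomato- replicates 1 to 5. Of the 5 Tomato+ libraries, 4 lay above all Tomato- libraries, and the overlap came from Tomato+ replicate 5 and Tomato- replicate 4. The mean was 1508 ± 283 CPM in Tomato+ libraries and 998 ± 259 CPM in Tomato- libraries (SD, n = 5 each). The log2 fold change was 0.77 (SE 0.48, 95% interval -0.25 to 1.79, unadjusted p = 0.127, edgeR adjusted p = 0.9996), so a difference was not shown. By exact permutation on log2(CPM + 1) the difference was 0.61, with an unadjusted p of 0.0159 and an adjusted p of 1, where 65 of 4692 genes (1.39%) had an unadjusted p under 0.05. That share includes genes with counts in too few libraries to reach such a p, whereas 264 genes had counts in every library. The smallest possible p was 0.00794, so an adjusted p under 0.05 needed many genes at that smallest p.

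The estimate for Birc2 stayed above 0 in all 19 alternatives, between 0.32 and 1.02, and the adjusted p never passed (0.618 to 1). Of these alternatives, 10 refit the same libraries with 1 left out. On the TMM scale the median log2 fold change over all 1016 tested genes was 0.21, with 592 above 0. With scaling by total counts that median was -0.03, and the estimate for Birc2 was 0.59. Among the 225 genes that reach 10 counts in each library, edgeR gave 0.67 (95% interval 0.0038 to 1.34, unadjusted p = 0.0489, adjusted p = 0.618), where 13 genes (5.78%) had an unadjusted p under 0.05. The lowest Tomato- values were those of replicates 1, 2 and 5, the libraries with under 1000 detected genes. Without these the Tomato- libraries had 1030 and 1427 CPM and the log2 fold change was 0.32 (unadjusted p = 0.550, edgeR adjusted p = 1). Whether detection had a part in the difference was not tested.

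**Figure D3:**
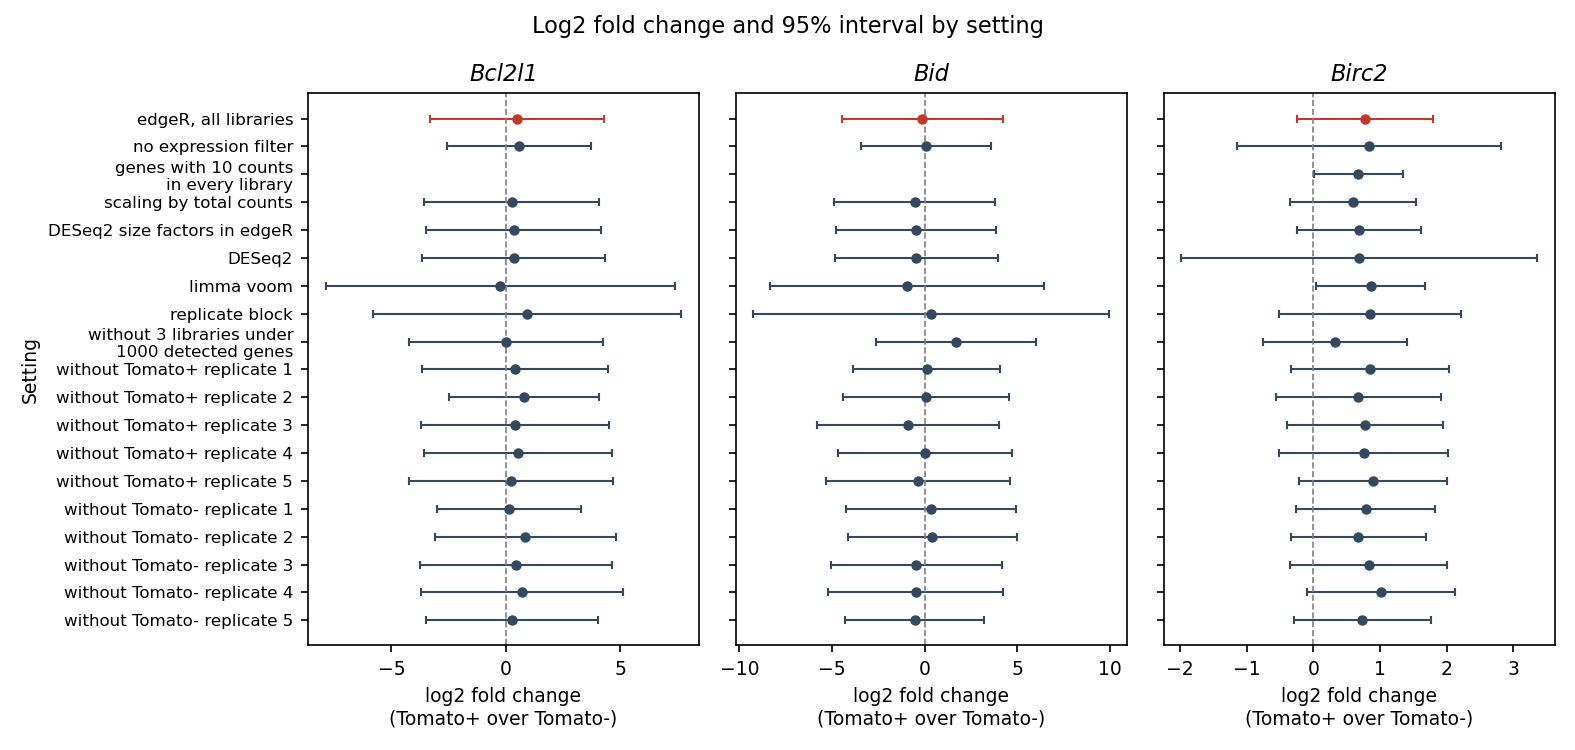
Log2 fold change of Tomato+ over Tomato- (points, with 95% intervals) for Bcl2l1, Bid and Birc2 under each setting (rows), with edgeR on all libraries in red and no point where a gene was not tested. The scales of the 3 panels differ. The estimates of Birc2 stayed above 0, between 0.32 and 1.02, while those of Bid lay on both sides of 0.

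The pattern of Birc2 over the 10 libraries was most like that of Gnas, which encodes the stimulatory G protein alpha subunit, and of Mkrn1, which encodes a ubiquitin ligase. Likeness was the root mean square difference of centred log2(CPM + 1). It was 0.29 for Gnas and 0.32 for Mkrn1, against a median of 0.81 over 254 genes with counts in every library, the 9 and predicted gene models left out. This measure is also small for genes that vary little between libraries, so by itself it does not show a shared pattern. Gnas had 9586 ± 1274 CPM in Tomato+ libraries and 7796 ± 1240 CPM in Tomato- libraries (log2 fold change 0.50, unadjusted p = 0.0330, edgeR adjusted p = 0.9996). Mkrn1 had 3665 ± 470 CPM in Tomato+ libraries and 3323 ± 676 CPM in Tomato- libraries (log2 fold change 0.32, edgeR adjusted p = 0.9996).

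Per length, taking CPM per kb of annotated exon, the mean level of Birc2 was 329 ± 61.9 in Tomato+ and 218 ± 56.5 in Tomato-. Bcl2l1 had 109 ± 67.6 in Tomato+ and 90.6 ± 76.4 in Tomato-, and Bid had 88.7 ± 102 in Tomato+ and 129 ± 148 in Tomato-. Birc2 lay above Bcl2l1 in 9 of 10 libraries, the exception being Tomato- replicate 2, and the ranges of the 2 genes overlapped between 168 and 193. Birc2 lay above Bid in 8 of 10 libraries, with ranges of 168 to 427 for Birc2 and 0 to 294 for Bid. The order of Bcl2l1 and Bid differed between the fractions, with Bcl2l1 higher in 6 of 10 libraries, so these neighbours did not differ beyond their spread. Bid lay above Bak1 in 8 libraries and both were at 0 in the other 2. Bak1 followed at 0.203 ± 0.453 in Tomato+ and 0.362 ± 0.809 in Tomato-, and Bax, below Bak1 in the 2 libraries with Bak1 counts, came last at 0.0221 ± 0.0495 in Tomato+ and 0 in Tomato-. Lengths are those of all annotated exons, so a gene expressed as a shorter form has a higher true level per length.

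**Figure D4:**
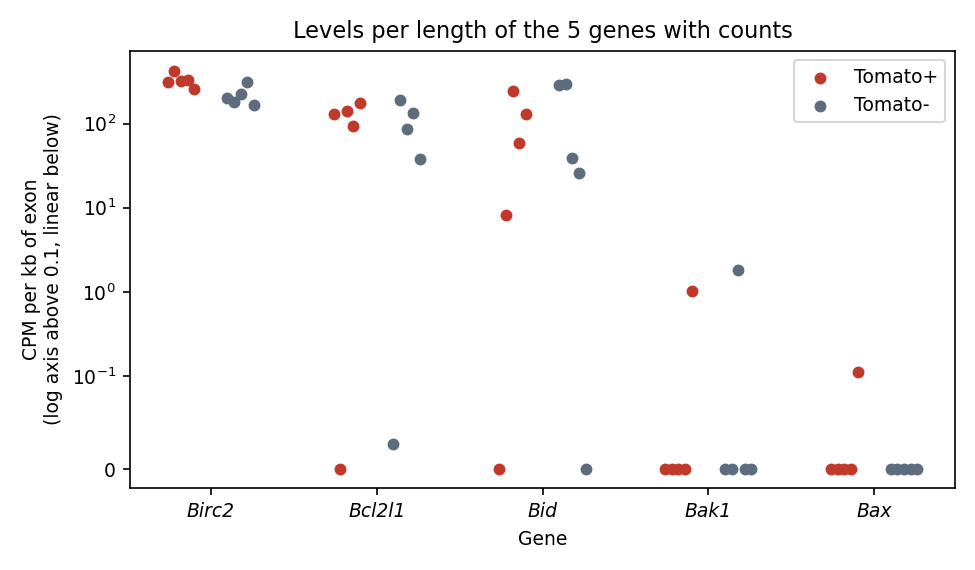
CPM per kb of annotated exon for the 5 genes with counts, 1 point per library, Tomato+ (red) left of Tomato- (grey), on an axis that is logarithmic above 0.1 and linear below. Birc2 was high in every library, Bcl2l1 and Bid were high in most, and Bak1 and Bax were at 0 in 8 and 9 of 10 libraries.

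Of 18 other BCL-2 family genes 5 had any count (27.8%), against the 20.0% of all listed genes, and of these Bnip3l alone was tested. Bnip3l, which encodes the mitophagy receptor Nix, had 1121 ± 380 CPM in Tomato+ libraries and 1057 ± 831 CPM in Tomato- libraries (log2 fold change 0.38, SE 0.62, edgeR adjusted p = 0.9996). It was present in all 10 libraries, from 676 to 1589 CPM in Tomato+ libraries and from 281 to 2465 CPM in Tomato- libraries. The other 4 were Bok, Bbc3, Hrk and Bcl2l13, each with counts in 1 library and none above 1.66 CPM. Bok, Bbc3 and Hrk are named here after their values were seen.

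Of 14 other caspases and apoptosome genes 5 had any count (35.7%), none was tested, and Apaf1 and Cycs, which encode the scaffold and the trigger of the apoptosome, had none. Casp6, an executioner caspase, had 487 and 66.2 CPM in Tomato+ replicates 1 and 5, against 569 CPM in Tomato- replicate 1, and 0 elsewhere. Casp1, the inflammatory caspase, had 796 CPM in Tomato+ replicate 3 alone.

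Of 9 other inhibitor of apoptosis genes 3 had any count (33.3%), and none was tested. Xiap, which encodes a direct inhibitor of caspases, had 12.1 and 20.9 CPM in Tomato+ replicates 4 and 5, against 51.9 and 84.1 CPM in Tomato- replicates 3 and 4. Those were the 4 libraries with the most detected genes. Birc6 had 58.0 CPM in Tomato+ replicate 4 and under 1 CPM in Tomato+ replicate 3 and Tomato- replicate 4. Birc2 thus had counts in libraries in which none of these relatives was detected.

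Cflar, which encodes the caspase-8 inhibitor c-FLIP, was the 1 gene of 11 in the death receptor list with any count. It had 0, 103, 162, 188 and 89.8 CPM in Tomato+ replicates 1 to 5, against 718, 738, 95.9, 149 and 183 CPM in Tomato- replicates 1 to 5. The 2 highest libraries were Tomato- replicates 1 and 2, the same 2 as for Bid, and the other values of the groups overlapped. The log2 fold change was -1.40 (SE 1.91, 95% interval -5.44 to 2.65, edgeR adjusted p = 0.9996).

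Of 5 genes of the outer mitochondrial membrane (Vdac1, Vdac2, Vdac3, Mtch2 and Tspo), 4 had any count. Of these, 3 were tested, 1 with a higher and 2 with a lower estimate, and 0 passed the threshold. Their median log2 fold change was -0.37, which is the value of Tspo, against 0.21 over all 1016 tested genes. With scaling by total counts it was -0.61, against -0.03 over all tested genes. Without the 3 libraries under 1000 detected genes 2 of the 3 had a higher estimate, as had 1069 of all 2157 genes then tested. Tspo, the translocator protein of the outer membrane, had 1016, 1308, 1518, 1136 and 1729 CPM in Tomato+ replicates 1 to 5, against 1388, 2376, 2223, 1885 and 2406 CPM in Tomato- replicates 1 to 5. Of the 5 Tomato- libraries, 4 lay above all Tomato+ libraries, yet the log2 fold change of -0.37 (SE 0.38, 95% interval -1.18 to 0.45) did not pass (edgeR adjusted p = 0.9996). By exact permutation on log2(CPM + 1) the difference was -0.61 (unadjusted p = 0.0317), and it did not pass after adjustment. In that test 65 of 4692 genes (1.39%) had an unadjusted p under 0.05, a share with the same limits as for Birc2. Exons of Tspo overlap those of Mcat on the other strand. Vdac3, an anion channel gene, had 272 ± 199 CPM in Tomato+ libraries and 238 ± 153 CPM in Tomato- libraries (log2 fold change 0.40, SE 1.75, edgeR adjusted p = 0.9996).

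Of 7 genes of phosphatidylserine exposure, the step that marks dying platelets, 4 had any count and none was tested. Tmem30a, a flippase subunit, had 69.3 CPM in Tomato+ replicate 5 and 742 CPM in Tomato- replicate 2. Ano6, the calcium-activated scramblase, had 47.1 CPM in Tomato+ replicate 5, against 630, 40.4 and 5.002 CPM in Tomato- replicates 2, 3 and 4. Xkr8, the scramblase that caspases activate, had no count.

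Leukocytes use Mcl1 and Bcl2, so markers of leukocytes and other blood or vessel cells are given beside the zeros of those genes, and their part in the results was not tested. Of 4 B cell markers 1 had any count (0 to 115 CPM in sum in Tomato+, 0 in Tomato-), with Cd79a and Cd79b at 0. Of 5 T and NK cell markers 1 had any count (0 in Tomato+, 0 to 20.7 CPM in sum in Tomato-), with Cd3e at 0. Neutrophil markers summed to 0 to 532 CPM in Tomato+ libraries and 0 to 276 CPM in Tomato- libraries with 2 of 7 in the table having any count and S100a8 at 0. Monocyte markers summed to 6256 to 8692 CPM in Tomato+ libraries and 5881 to 9029 CPM in Tomato- libraries, nearly all from Lyz2, while Csf1r and Ccr2 were at 0. Red cell markers summed to 504 to 1052 CPM in Tomato+ libraries and 47.8 to 4021 CPM in Tomato- libraries with 4 of 7 in the table having any count and Slc4a1 at 0. Endothelial markers summed to 464 to 1501 CPM in Tomato+ libraries and 130 to 1725 CPM in Tomato- libraries with 4 of 5 having any count, led by Pecam1, which platelets express too, and with Cdh5 at 0.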

How the data were processed

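Bulk RNA-seq of 10 libraries of sorted mouse platelets was used. The deposited table holds whole read counts by gene symbol, which the authors did not normalize. Complementary DNA was made by a Smart-seq+ protocol and libraries with Nextera XT, per the labels' protocols. The submitters' processing notes name Trimmomatic, FastQC, STAR, featureCounts and the build mm10, with no versions. The sources used here do not give the annotation, the strand setting or the treatment of multiply aligned reads. The counts used here carry no molecular identifiers, so limits for 0 counts cover counting error only. Intervals of fold changes come from the fits and include the spread between libraries. Limits for 0 counts use 3 counts of the library total.

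Library totals are sums of all rows. Of 23420 symbols, 21777 matched GENCODE M21 (GRCm38), which gave coordinates, exon lengths and transcript sequences. Coding stretches were taken from the longest coding transcript. The test was edgeR's (version 4.0.16, R 4.3.3) quasi-likelihood test (robust fit, TMM normalization, default expression filter with a minimum count of 10 and a minimum total of 15, group as the sole term, Benjamini-Hochberg adjustment over all genes tested). Log2 fold changes are Tomato+ over Tomato- on the TMM scale. Genes the filter removed were compared by exact permutation on log2(CPM + 1) over all genes with any count. Alternatives were no filter, genes with 10 counts in every library, scaling by total counts, DESeq2's size factors, DESeq2 1.42.0, limma 3.58.1 (voom), a replicate block, and libraries left out. No pair of libraries agreed within sampling noise (45 pairs, lowest chi-square per degree of freedom 451).

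The 9 genes and the lists were chosen with earlier results of these data known. Named genes are all 9, the 2 most abundant of each related list and any past the threshold, and the 2 genes most like a member with counts in every library. Of the markers of other cells, each list is given by its sum, and its most abundant genes are not always named. Among the listed genes, 2 are not reported here.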

Additional observations from a re-analysis of the deposited data

Results flagged for a closer look

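In groups of 5 libraries, a value was singled out when its gap to the nearest other library exceeded 0.71 of the group's range. Of 75 groups of values 21 were singled out. For normally distributed values chance gives about 1 group in 20, but counts with this much dropout are not normally distributed. In 15 of the 21 the other 4 libraries of the group were equal, at 0 counts. Of the 9 genes these were Bak1 in Tomato+ replicate 5 (2.44 CPM) and Tomato- replicate 3 (4.35 CPM), and Bax in Tomato+ replicate 5 (0.174 CPM).

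Among related genes, Bcl2l13 stood out in Tomato+ replicate 5 (1.66 CPM), Casp6 in Tomato+ replicate 1 (487 CPM) and Tomato- replicate 1 (569 CPM), Casp1 in Tomato+ replicate 3 (796 CPM), and Birc6 in Tomato+ replicate 4 (58.0 CPM) and Tomato- replicate 4 (0.0944 CPM). Tmem30a stood out in Tomato+ replicate 5 (69.3 CPM) and Tomato- replicate 2 (742 CPM), and Ano6 in the same libraries (47.1 CPM in Tomato+, 630 CPM in Tomato-). Summed phosphatidylserine exposure genes reached 126 CPM in Tomato+ replicate 5 and 1372 CPM in Tomato- replicate 2. Summed caspases and apoptosome genes reached 569 CPM in Tomato- replicate 1, from Casp6 alone.

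Among markers of other cells, S100a9 stood out in Tomato+ replicate 3 (240 CPM). In Tomato- replicate 4, Beta-s (3257 CPM), Ms4a6c (45.2 CPM) and Nkg7 (20.7 CPM, also the sum of T and NK cell markers) stood out.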

How the results depend on the processing

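Of the 9 genes, those with a value passed in none of the 19 alternatives, DESeq2 and limma voom included. Over all genes, DESeq2 called 216 of 2241 genes with an adjusted p (9.64%) and limma voom called 1 of 1016 (0.0984%), Ctla2a, with an SE of 0.024, where edgeR called 0. The cause was not tested. With 1 library left out, edgeR called 0 to 0 genes, and 0 to 0 of the 9. Left-out libraries moved the log2 fold change of Bcl2l1 between 0.16 and 0.86, of Bid between -0.88 and 0.42, and of Birc2 between 0.68 and 1.02. They moved the permutation difference of Bak1 between -0.48 and 0.36 and that of Bax between 0.05 and 0.06. Without the 3 libraries under 1000 detected genes that of Bak1 was -0.85. Among the libraries left, Bak1 entered edgeR's test, with a log2 fold change of -1.98 (SE 3.47). The log2 fold change of Bak1 was -0.66 in edgeR without a filter and -0.81 in DESeq2, and that of Bax was 2.14 and 0.81.

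Bcl2l1 turned to -0.23 with limma voom. Bid turned to 0.073 without a filter, to 0.36 with the replicate block and to 1.69 without the 3 libraries under 1000 detected genes. The log2 ratio of Bcl2l1 to Bak1 differed by -0.40 without these 3, and by -1.28 to 2.91 with 1 library left out. The cause of these turns was not tested. The median of 3 members per library was the same at 10 counts and without the 3 libraries.

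With the replicate block, edgeR called 0 genes and gave 0.93 for Bcl2l1 and 0.85 for Birc2. Deviations of same-numbered libraries from their group means had correlations of -0.11 to 0.12. For Tomato+ replicates 1 and 4 the same-numbered Tomato- library was the best match. With dropout this common, correlations near 0 cannot exclude pairing. The labels do not say that the numbers pair the libraries, so they were not taken to. Mcl1, Bcl2, Bcl2l11 and Casp9 have no value under any setting, and Bcl2l1, Bid, Bak1 and Bax none on genes with 10 counts in every library. Bax has none without Tomato+ replicate 5.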
